A study of Mus musculus with 2 samples.

Results

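Immunoglobulin constant regions and the J chain are the parts of an antibody that do not bind antigen. The 10 genes described here are the heavy-chain genes Ighm, Ighd, Ighg1, Ighg2b, Ighg2c and Igha, the light-chain genes Igkc, Iglc1 and Iglc2, and Jchain. They were taken by symbol from the 24014 genes of the 2 tables, and all 10 were found in both. Single-cell RNA libraries of mouse bone marrow (BD Rhapsody, a microwell platform that reads the whole transcriptome) came from wild type male mice whose strain label reads C57B/6. The ND mice ate normal chow and the HFD mice a diet with 60% fat for 16 weeks, and no other allele or agent is named in the labels. Each diet had 1 library. How many animals went into it, and whether cells were sorted, is not stated in the labels, so differences between the diets cannot be told apart from differences between animals or preparations. No test across samples was possible and no p-value is given, and the 95% intervals cover counting error only.

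The 2 libraries held 16817 (ND) and 17282 (HFD) cells with a median of 3644 and 3625.5 RNA UMIs, that is counted molecules, and they shared 329 cell index numbers. After filters on genes, mitochondrial UMIs and doublets, 13890 and 15214 cells were analysed, with medians of 4480 and 4075.5 UMIs. Immunoglobulin genes and Jchain together took 0.752% and 0.757% of the UMIs of the analysed cells. Plasma cells were gated as cells with at least 10 UMIs of Jchain and at least 3 of Mzb1, a chaperone of plasma cells and B cells, which gave 133 ND and 131 HFD cells. Each gated cell took the isotype of its highest heavy-chain gene, and its light chain from Igkc against the sum of Iglc1 and Iglc2.

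An antibody is built from a pair of heavy chains and a pair of light chains, and its heavy-chain constant region sets its isotype and the receptors that can carry or read it. A B cell first makes mu chains from Ighm, adds delta chains from Ighd by alternative splicing as it matures, and can later replace the mu gene by a gamma, epsilon or alpha gene through class switch recombination. Plasma cells secrete the finished antibody, and many settle in the bone marrow. IgM and IgA can be joined into polymers by the J chain, through a cysteine near the end of the secreted heavy chain, while kappa and lambda light chains are alternatives of which a cell usually uses 1.

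The heavy-chain genes lie side by side on the minus strand of chromosome 12 in the mouse assembly GRCm38, as annotated by GENCODE M21. In the direction of transcription Ighm (chr12:113418558-113422730) comes first and Igha (chr12:113254830-113260236) last. No build is named for the deposited tables, and coordinates and sequences are those of this reference. The last 60 coding bases of the secreted transcripts are shown because they separate the 2 isotypes that dominated the gated cells from the IgG genes. Capitals mark an in-frame cysteine codon, which stands as the next to last codon in Ighm and Igha. No in-frame cysteine codon was found in the same stretch of the IgG genes.
Ighm (chr12:113420870-113420929): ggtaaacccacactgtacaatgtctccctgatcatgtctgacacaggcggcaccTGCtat
Igha (chr12:113258771-113258830): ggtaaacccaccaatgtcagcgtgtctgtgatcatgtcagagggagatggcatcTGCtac
Ighg1 (chr12:113328979-113329038): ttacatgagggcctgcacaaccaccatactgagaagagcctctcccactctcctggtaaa
Ighg2b (chr12:113306392-113306451): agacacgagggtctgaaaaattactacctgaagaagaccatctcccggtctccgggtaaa
Ighg2c (chr12:113287392-113287451): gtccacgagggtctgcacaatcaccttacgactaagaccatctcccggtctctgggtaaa

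The lambda genes lie on the minus strand of chromosome 16, and Igkc on the plus strand of chromosome 6 (chr6:70726435-70726966). The stretch below is shown because the assignment of light-chain UMIs rests on such differences. Capitals mark the 19 positions of the 60 at which the coding sequences of Iglc1, Iglc2 and Iglc3, another lambda gene of the tables, are not all alike.
Iglc1 (chr16:19061963-19062022): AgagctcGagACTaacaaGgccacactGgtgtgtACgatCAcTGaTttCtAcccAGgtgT
Iglc2 (chr16:19198744-19198803): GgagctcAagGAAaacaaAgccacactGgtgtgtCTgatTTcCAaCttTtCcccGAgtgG
Iglc3 (chr16:19065573-19065632): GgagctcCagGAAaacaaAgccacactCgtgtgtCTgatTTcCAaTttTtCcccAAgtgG
Over the aligned coding bases Iglc2 and Iglc3 were 96.5% identical, with 11 of 314 bases different. Iglc1 was 74.8% identical to Iglc2. The sources used here do not say how the counting placed molecules that fit both Iglc2 and Iglc3, so the split between these 2 genes is uncertain. Ighg2b and Ighg2c were 85.9% identical, and the other pairs among Ighg1, Ighg2b, Ighg2c and Ighg3 lay between 75.7% and 77.7%.

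Gated plasma cells were 0.958% of ND cells (95% interval 0.802 to 1.13%) and 0.861% of HFD cells (0.720 to 1.02%). The ratio of HFD over ND was 0.899 (0.701 to 1.15). Clustering without any immunoglobulin gene or Jchain, but with the gate gene Mzb1, put 127 ND and 127 HFD gated cells into 1 plasma-like cluster. Beside Mzb1, which the gate required, its top 10 genes included the plasma cell markers Derl3, Txndc5 and Tnfrsf17. The 6 ND and 4 HFD gated cells outside it had median depths of 22018.5 and 21398 UMIs, against 11545 and 11316 inside, and 21.3% and 21.9% of immunoglobulin UMIs, against 48.6% and 50.8%. Whether they were pairs of cells in 1 well was not tested. They are named below where they move a result.

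IgM was the commonest isotype of the marrow plasma cells on both diets and IgA the next. IgM cells, whose mu heavy chain is the first made, were 91 of 133 in the ND library (68.4%, 59.8 to 76.2%) and 91 of 131 in the HFD library (69.5%, 60.8 to 77.2%). IgA cells, whose alpha chain serves the mucosal surfaces, were 34 (25.6%, 18.4 to 33.9%) and 37 (28.2%, 20.7 to 36.8%). The intervals of the 2 libraries overlapped widely, and the ratio of the IgA shares was 1.10 (0.675 to 1.81).

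IgG cells were few. IgG2b cells numbered 5 in the ND and 2 in the HFD library, and IgG2c cells 3 and 1. Together they were 6.02% and 2.29% of the gated cells, a ratio of 0.381 whose interval of 0.0651 to 1.59 held 1. No cell was led by Ighg1 or Ighd, which allows shares of up to 2.26% (ND) and 2.29% (HFD).

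Ighg3 is the remaining mouse IgG gene and was not among the 6 genes of the isotype call. When it was added, 3 HFD cells and no ND cell were led by it. The 3 cells held 1483, 1857 and 1533 Ighg3 UMIs, and without Ighg3 they had been called IgA on 5 Igha UMIs and IgM on 14 and 12 Ighm UMIs. The third of these cells lay outside the plasma-like cluster and was the deepest HFD gated cell, with 38837 UMIs. With Ighg3 counted, IgG cells were 6.02% of ND and 4.58% of HFD gated cells. Ighe, the gene of IgE, led no cell.

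Among the 6 heavy-chain genes of the call, with Ighg3 and Ighe left out, 1 gene led most cells clearly. It held at least 80% of the UMIs of these 6 genes in all gated cells of both libraries and at least 99% in 117 of 133 and 123 of 131. In the 3 HFD cells led by Ighg3 that share says nothing of the isotype, since the called gene held only 5 to 14 UMIs. Mixed counts were seen in an ND IgM cell with 1011 Ighm and 116 Ighg2b UMIs and an HFD IgM cell with 1151 and 161. In IgA cells the other 5 genes together reached at most 38 (ND) and 37 (HFD) UMIs per cell, beside the 1483 Ighg3 UMIs of 1 HFD cell.

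By the median cell, IgA cells held more UMIs of their heavy-chain gene than IgM cells. UMIs count molecules and are not divided by gene length, so values of different genes are set side by side without ranking their expression per length. In IgA cells Igha ran from 468 through a median of 2349 to 3273 UMIs per cell in the ND library, and from 5 through 2600 to 3638 in the HFD library. In IgM cells Ighm ran from 109 through 937 to 1701 UMIs (ND) and from 12 through 821 to 1820 (HFD). The HFD minima of 5 and 12 UMIs belong to cells led by Ighg3. A further HFD IgA cell held 11 Igha and no Ighg3 UMIs beside 1042 of Igkc. It was shallow, with 1709 UMIs in all, and the next HFD IgA cell held 437 Igha UMIs.

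The few IgG cells held heavy-chain counts above those of most IgM cells. The 5 ND IgG2b cells held 1830, 2778, 3232, 3436 and 3477 Ighg2b UMIs and the 2 HFD cells 2549 and 2783. IgG2c cells held 1739, 1888 and 1974 Ighg2c UMIs in the ND library and 2179 in the HFD library. Each of these values lay above the highest Ighm count of an ND IgM cell, and all but 1 of them above the highest HFD count of 1820. Outside such cells the genes were nearly silent: Ighg1, of IgG1, had 17 UMIs over all ND gated cells, 13 of them in 1 cell, and 0 over the HFD ones, and Ighd had 11 and 2.

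**Figure D1:**
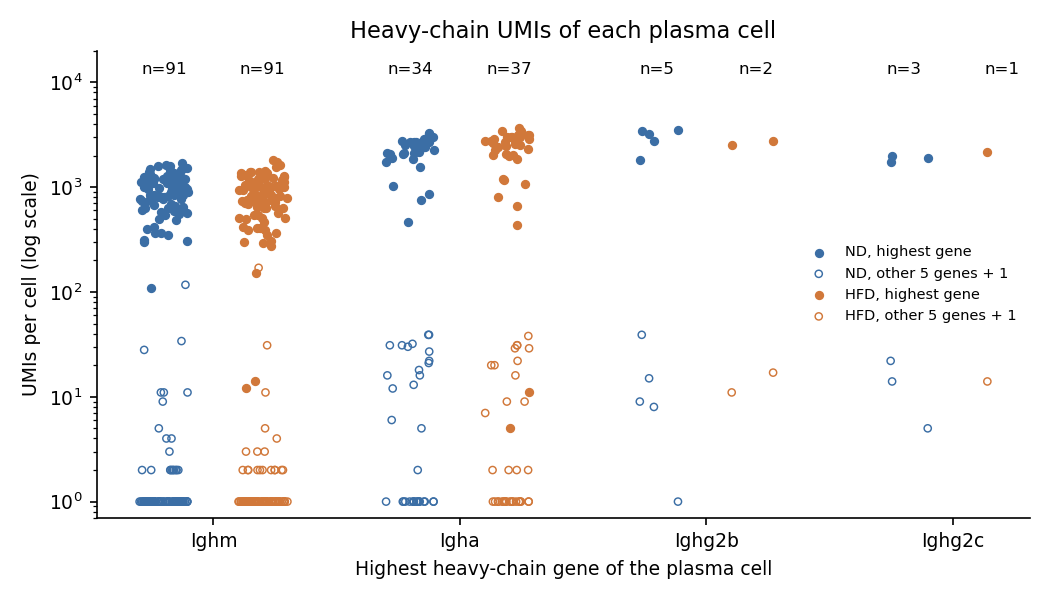
UMIs of the leading heavy-chain gene (filled points, vertical axis, log scale) and of the other heavy-chain genes plus 1 (open circles) in each gated plasma cell, by its leading gene, with ND and HFD cells side by side. IgA cells centre at medians of 2349 (ND) and 2600 (HFD) UMIs, IgM cells at 937 and 821. Of the HFD cells at the bottom, those at 5, 12 and 14 UMIs are led by Ighg3 when that gene is counted, and an IgA cell at 11 UMIs is not.

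Relative to light-chain UMIs the heavy chain was also more abundant in IgA than in IgM cells. The median ratio of heavy to light UMIs within a cell was 0.640 (ND) and 0.614 (HFD) in IgA cells and 0.306 and 0.269 in IgM cells. In IgG2b cells the median was 0.735 (5 ND cells) and 0.685 (2 HFD cells). The leading and other heavy-chain genes took a median of 17.5% and 19.3% of all UMIs in IgA cells and 9.43% and 8.46% in IgM cells. The order was the same in both libraries, and cells of 1 library are not replicates of a diet.

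Igkc, the only kappa constant gene, dominated the light chains. Its UMIs per cell had medians of 3685 (ND) and 3964 (HFD) in IgA cells and 3054 and 3157 in IgM cells. Lambda cells were 7 of 133 in the ND library (5.26%, 2.14 to 10.5%) and 3 of 131 in the HFD library (2.29%, 0.475 to 6.55%). The ratio of these shares was 0.435, with an interval of 0.0726 to 1.91.

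The lambda cells are given by isotype. In the ND library 4 of 34 IgA cells were lambda, and all 4 used Iglc1, with 1341, 1457, 1592 and 2182 UMIs. None of the 37 HFD IgA cells was lambda, which allows a share of up to 8.11%. Among IgM cells 3 of 91 were lambda in each library: 2 ND cells were led by Iglc2 (477 and 1644 UMIs) and 1 by Iglc1 (1649), and 2 HFD cells by Iglc2 (1573 and 1734) and 1 by Iglc1 (678). With 10 lambda cells in all, no difference between isotypes or diets is shown.

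Kappa cells were not free of lambda transcripts. Iglc2 was found in 100% of ND and 98.5% of HFD gated cells, with medians of 26 and 25 UMIs, and Iglc1 in 87.2% and 87.0%, with medians of 4 and 4. In neutrophil-like cells, which make no antibody, the shares were 0.430% and 0.587% for Iglc2 and 0.626% and 0.308% for Iglc1, at median depths of 4709.5 and 3978 UMIs against 11649 and 11388 in the gated cells. Iglc2 exceeded Iglc1 in 118 of 126 ND and 113 of 128 HFD kappa cells. Where these molecules came from was not tested.

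A small group of cells carried both kinds of light chain at high counts. At least 100 UMIs of Igkc together with at least 100 of a lambda gene were found in 9 of 133 ND and 10 of 131 HFD gated cells. In the ND library the lambda gene was Iglc2 in 6 of them (112 to 1468 UMIs), Iglc3 in 2 (205 and 353) and Iglc1 in 1 (2182). In the HFD library it was Iglc3 in 4 (206 to 534), Iglc1 in 3 (221 to 841) and Iglc2 in 3 (101 to 114).

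**Figure D2:**
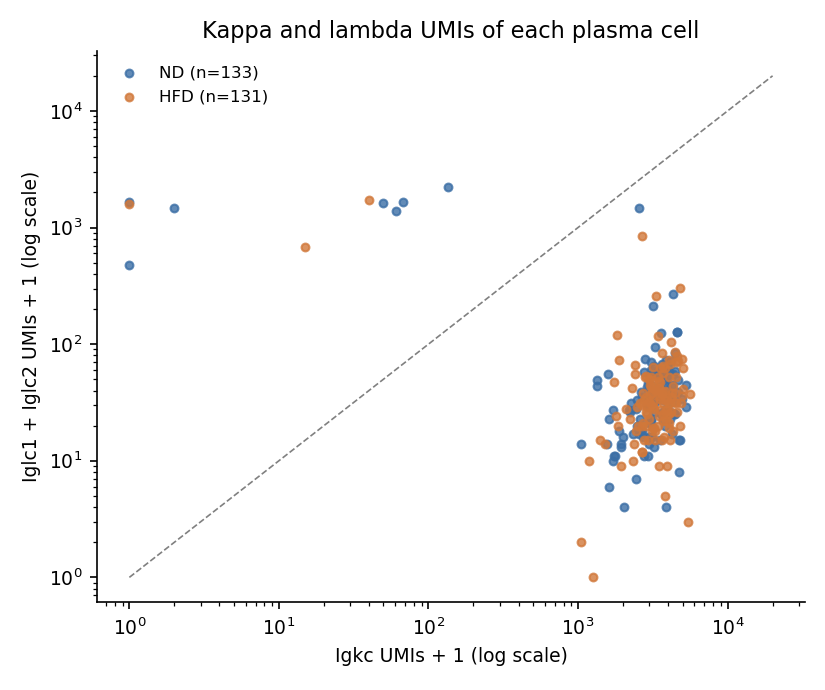
Igkc UMIs (horizontal axis) against the sum of Iglc1 and Iglc2 UMIs (vertical axis) in each gated plasma cell, both plus 1 on log scales, with a dashed line where they are equal. The 7 ND and 3 HFD lambda cells lie above the line, and the kappa cells form a cloud below it with medians of 26 and 25 Iglc2 UMIs over all gated cells.

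Jchain, whose protein links IgM and IgA into polymers, was used in the gate, so its presence is no finding, but its level above the gate differed with isotype. IgA cells held 293 to 1498 Jchain UMIs with a median of 900 in the ND library, and 19 to 1524 with a median of 940 in the HFD library. IgM cells held 91 to 1155 with a median of 496, and 16 to 1409 with a median of 498. The ranges overlapped in both libraries.

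The gap was then taken on 2 other scales. As a share of the UMIs left after immunoglobulin and Jchain UMIs were removed, Jchain had medians of 14.6% (ND) and 17.96% (HFD) in IgA cells and 10.4% and 10.3% in IgM cells. Over summed UMIs without immunoglobulin genes, IgA over IgM gave log2 ratios of 0.31 in the ND and 0.76 in the HFD library, so Jchain passed the 1.5-fold size rule in the HFD library only. Without the gated cells outside the plasma-like cluster the ratios were 0.65 and 0.68, both past the rule. Igkc stood at -0.30 and 0.33 on the same scale, with no call.

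IgG cells carried Jchain as well, though IgG is not joined by the J chain. The 5 ND IgG2b cells held 334 to 1318 Jchain UMIs and the 3 IgG2c cells 480 to 551. The 2 HFD IgG2b cells held 158 and 603, and the IgG2c cell held 555. These counts lay within the range of the IgM cells except for the highest ND IgG2b value. Since the gate requires Jchain, plasma cells without it were looked for in the plasma-like cluster: its 9 ND and 4 HFD cells that missed the gate held 39 to 646 Jchain UMIs but for 1 ND cell with 1, and all but that cell failed on Mzb1, which stood at 0 to 2 UMIs.

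**Figure D3:**
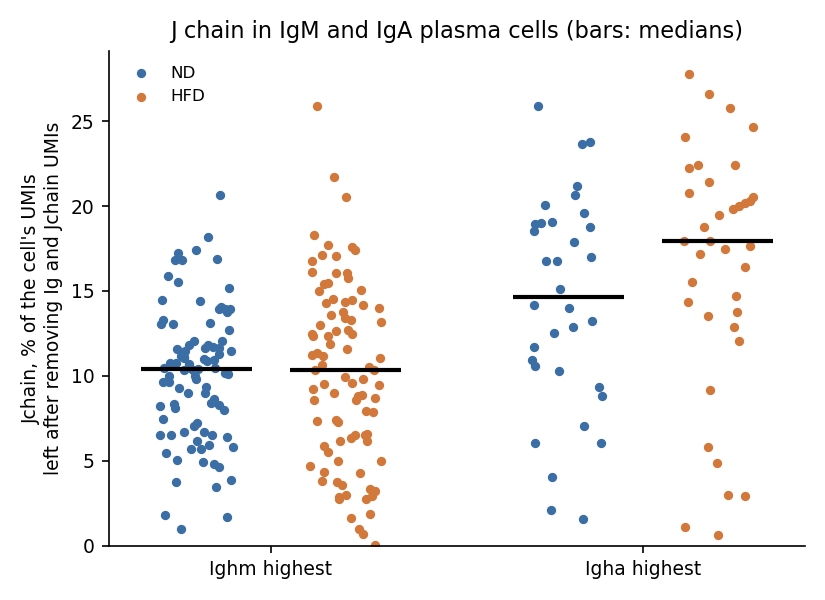
Jchain UMIs as a percent of the UMIs left in a cell after removal of immunoglobulin and Jchain UMIs (vertical axis), for IgM and IgA plasma cells of each library, 1 point per cell, with bars at the medians. The medians stand at 10.4% and 10.3% in IgM cells and at 14.6% and 17.96% in IgA cells, and the clouds overlap.

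Between the diets, the summed levels of the abundant members in gated plasma cells were close. The call rule asked for a share of the summed UMIs that differed by at least 1.5-fold between the libraries and a log2 ratio whose 95% interval excluded 0, which describes these libraries only. Of 7970 genes tested, 2.81% were called higher and 6.14% lower. Of the 8 members with at least 20 UMIs, none was called higher and 3 were called lower.

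The 5 members not called stood near 0: Igha had 76142 and 83791 UMIs and a log2 ratio of 0.21 (0.19 to 0.22), Ighm stood at -0.07, Igkc at 0.13, Iglc2 at -0.08 and Jchain at 0.02. The members called lower are those of the rare cells. Ighg2b had 15150 and 5753 UMIs (-1.33, -1.37 to -1.29), Ighg2c 5629 and 2201 (-1.29, -1.36 to -1.21) and Iglc1 8967 and 2728 (-1.65, -1.71 to -1.59). Beside them stand 5 against 2 IgG2b cells, 3 against 1 IgG2c cells and 5 against 1 lambda cells led by Iglc1. The intervals treat molecules as independent, though most came from a handful of cells.

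Within an isotype the leading gene, Igkc and Jchain also stayed under the 1.5-fold rule. In IgA cells 3.57% of 4145 genes were called higher and 14.3% lower, and Igha stood at a log2 ratio of 0.19, Igkc at 0.37 and Jchain at 0.12. Without the 4 ND and 2 HFD IgA cells outside the plasma-like cluster the shares called were 4.77% and 7.08%, and the ratios were 0.01, 0.23 and -0.05. In IgM cells 5.19% of 6710 genes were called higher and 4.14% lower, and Ighm stood at -0.18, Igkc at 0.01 and Jchain at -0.06, or -0.11, 0.06 and 0.01 within the plasma-like cluster. In IgA cells the members called lower were Iglc1 (-5.42, 6754 and 153 UMIs), with 4 ND lambda cells and no HFD one, and Ighm (-2.24, 112 and 23 UMIs), which is no part of IgA.

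The genes around the antibody were followed in 7 lists. The secretion list, the factors that fold, glycosylate and export antibody, had no called member among its 34 genes in gated plasma cells, with a median log2 ratio of 0.07 beside -0.06 for all genes tested. Its largest ratios were those of Edem2 (0.51, 0.21 to 0.82), Dnajb9 (0.37), Fkbp11 (0.35) and Prdm1 (-0.34), the last a master regulator of plasma cells. In the antigen presentation list 3 of 6 genes were higher in the HFD library (median 0.69). H2-Aa, a chain of the class II molecule, had 86 and 183 UMIs (1.16, 0.78 to 1.54), H2-Eb1 stood at 0.88 and H2-Ab1 at 0.76. In IgA cells 2 of 4 genes of this list were higher (median 0.64), but none of 4 (-0.10) without the HFD cell led by Ighg3. In IgM cells 3 of 6 were higher both with and without the Ighg3-led cells (medians 0.77 and 0.79). Of the homing and survival list, 2 of 26 genes were higher, the gut homing receptor gene Ccr9 (0.92) and the integrin gene Itgb7 (0.67). The chemokine receptor gene Ccr2 of the same list was lower (-2.30, 62 and 12 UMIs). An ND gated cell with 21828 UMIs lay in a monocyte-like cluster that had Ccr2 among its top 10 genes. How many of the Ccr2 UMIs came from that cell is not given here.

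The other lists moved little or rested on few cells. Among B cell receptor partners, 2 of 15 genes were lower: Cd72 (-2.44, 17 and 3 UMIs), a surface inhibitor, and Fcgr2b (-0.71), the inhibitory Fc receptor for IgG, which is also the 1 of 4 lower in the list of immunoglobulin receptors. Of 12 class switching genes 1 was higher, Supt5 (0.67). Of 14 cycling genes Rrm2 was higher (0.74) and Tyms (-1.83), Hmgb2 (-0.89) and Stmn1 (-0.75) were lower. In IgM cells, however, 7 of 13 cycling genes were higher and none lower, while in IgA cells 1 of 11 was higher and 8 lower. Without the 3 HFD cells led by Ighg3, 3 of 12 were higher and 2 lower in IgM cells, and none was higher and 10 of 10 were lower in IgA cells. Without the cells outside the plasma-like cluster the direction in IgA cells turned, with 4 of 6 higher and 1 lower, and without both kinds of cell none of 3 was higher and 2 were lower. The 2 cells richest in cycling UMIs held 67.7% (ND) and 81.6% (HFD) of those UMIs in IgA cells and 52.6% and 55.7% in IgM cells.

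IgA and IgM plasma cells also differed in genes outside the immunoglobulin loci, and the difference could be read in each library on its own. UMIs were summed over the cells of an isotype and scaled without immunoglobulin and Jchain UMIs. Of 2498 genes with at least 50 UMIs in each library, 1.6% (40 genes) were higher in IgA cells in both libraries and 3.08% (77 genes) were lower in both. Restricted to the plasma-like cluster, 42 were higher and 68 lower, and without the HFD cells led by Ighg3, 32 and 79.

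The 6 genes highest in IgA cells were Ccr10, Rrm2, Vpreb3, Itgb7, Atp1b1 and Pclaf. Ccr10, the receptor for chemokines of mucosal epithelia, had 74 UMIs in ND IgA cells and 14 in ND IgM cells, and 54 and 20 in the HFD library. The log2 ratios were 3.40 (2.57 to 4.34) and 2.80 (2.04 to 3.62), and the gene was found in 67.7% against 11.0% of ND cells and 56.8% against 15.4% of HFD cells. Itgb7, a chain of the gut homing integrin, stood at 1.83 and 2.21. Vpreb3, known from the assembly of immunoglobulin in early B cells, stood at 2.64 and 3.42 and was found in 73.5% against 13.2% (ND) and 62.2% against 9.89% (HFD) of the cells. Atp1b1, a subunit of the sodium pump, stood at 1.80 and 2.94.

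The cycling genes Rrm2 (2.91 and 2.71) and Pclaf (1.69 and 2.37) were also among the 6 highest. They rested on few cells: 1 cell held 48.9% (ND) and 85.9% (HFD) of the Rrm2 UMIs of IgA cells and 46.7% and 77.8% of the Pclaf UMIs. The HFD cell was the one led by Ighg3, and without the Ighg3-led cells the HFD counts in IgA cells fell from 71 to 10 (Rrm2) and from 36 to 8 (Pclaf), which left both genes under the minimum of 50 UMIs. Without the cells outside the plasma-like cluster their ND ratios were 0.29 and -0.74. The other 4 of the highest genes kept their call in both libraries in both settings.

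The 6 genes lowest in IgA against IgM plasma cells were Chst1, Ggh, Fcmr, Slc12a2, Spon1 and Ms4a1. Fcmr, the receptor for the Fc part of IgM, had 1 UMI in ND IgA cells and 70 in ND IgM cells, and 0 and 79 in the HFD library. Ms4a1, the gene of CD20, stood at -2.58 and -4.06 and was found in 11.8% against 44.0% (ND) and 5.41% against 49.5% (HFD) of the cells. Chst1, a sulphotransferase, had 8 and 249 UMIs (-3.96) and 2 and 323 UMIs (-5.97). Spon1, a matrix protein gene, had 0 UMIs in IgA cells of both libraries and 52 and 56 in IgM cells. Ggh, a folate enzyme, stood at -5.19 and -3.57 and the ion cotransporter gene Slc12a2 at -3.34 and -2.93. All 6 kept their call in both libraries within the plasma-like cluster and without the Ighg3-led cells.

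**Figure D4:**
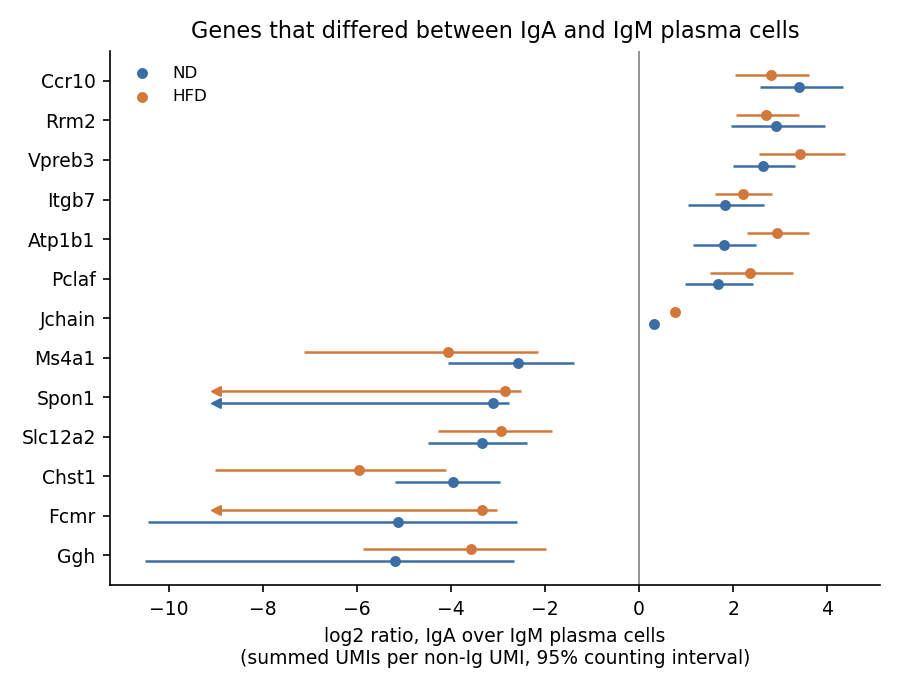
Log2 ratio of IgA over IgM plasma cells (horizontal axis, summed UMIs per UMI outside the immunoglobulin genes) for the 6 highest and 6 lowest genes and for Jchain, 1 point per library with its 95% counting interval. Ccr10 stands at 3.40 and 2.80 and Chst1 at -3.96 and -5.97, and an arrow marks an interval that is open because a group held 0 UMIs.

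By list, 3 of 22 homing and survival genes were higher in IgA cells in both libraries, Ccr10, Itgb7 and Cd28 (1.05 and 0.96), a costimulatory receptor that plasma cells keep, and 1 was lower, the survival gene Bcl2 (-1.03 and -1.37). Of 10 B cell receptor genes Cd79a, the signalling partner of surface immunoglobulin, was higher (0.75 and 0.86), and Blk and Ptpn6 were lower. In the secretion list 1 of 34 was higher, Edem2, of the disposal of misfolded proteins (0.72 and 0.94). In the antigen presentation list 1 of 4 was lower, Cd74 (-1.04 and -0.68), the invariant chain of class II molecules. In the cycling list 4 of 7 were higher and none lower, namely Rrm2, Pclaf, Top2a and Hmgb2. Without the Ighg3-led cells none of these 4 passed in both libraries, since Rrm2, Pclaf and Top2a fell under 50 UMIs and the HFD ratio of Hmgb2 turned to -0.05. Within the plasma-like cluster Hmgb2 passed in both (1.16 and 1.07), while the other 3 fell under 50 UMIs and the ND ratio of Top2a turned to -1.06.

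Across the B lineage the constant-region genes appeared in the order of B cell development. Stages were taken from clusters formed without immunoglobulin genes and named by fixed markers, and levels are in CPM, the UMIs of a gene scaled to one fixed total per stage. The stages held 84 ND and 119 HFD pro-B and large pre-B-like cells, 333 and 461 small pre-B and immature B-like cells, 443 and 561 mature B-like cells and 302 and 328 cells of other B-lineage clusters. Median depths ran from 2198 to 5470 UMIs, below those of plasma cells.

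Ighm was on from the earliest stage. Its level was 1809 CPM (ND) and 1775 CPM (HFD) in pro-B and large pre-B-like cells, 7010 and 6615 CPM in small pre-B and immature B-like cells and 6476 and 6237 CPM in mature B-like cells. It was found in 99.2% to 100% of the cells of each stage, against 26.9% and 28.0% of neutrophil-like cells. The first stage stood clearly below the others, while the 2 later stages lay close to each other.

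Ighd, the gene of the delta chain, was higher at each later stage. It stood at 38.1 (ND) and 55.8 (HFD) CPM, then at 195 and 205, then at 1345 and 1417 CPM, and was found in 21 of 84 and 36 of 119 cells of the first stage, then in 33.9% and 33.8%, and 78.6% and 76.3% of the cells. In neutrophil-like cells the shares were 0.391% and 0.447%.

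The mature B-like cells fell into 2 sub-clusters that differed in Ighd. One, with Fcer2a and Cr2 among its top 10 genes, which encode the low-affinity IgE receptor CD23 and the complement receptor CD21, held 246 ND and 307 HFD cells with 2076 and 2212 CPM of Ighd, found in 95.5% and 96.1% of cells. The other, led by Ms4a1 and Cfp, held 197 and 254 cells with 514 and 581 CPM, found in 57.4% and 52.4%. Thinned to 1000 UMIs per cell, the shares were 83.7% and 89.2% against 40.1% and 34.2%. Ighm went the other way, with 4783 and 4540 CPM in the first and 8397 and 8019 in the second, and Ighd exceeded Ighm in 53 and 54 cells of the first but in 1 and 2 of the second. The mature name of the second rested on 3 markers. With a stricter filter of 500 genes and 15% mitochondrial UMIs, a cluster led by Ms4a1 and Cfp took no name. Its closest marker list was that of small pre-B and immature B cells, by 2 markers. Mature B-like cells then numbered 233 (ND) and 291 (HFD).

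Igkc was low in the first stage and higher at each later one. Its level was 234 and 201.6 CPM in pro-B and large pre-B-like cells, 8522 and 11330 CPM in small pre-B and immature B-like cells and 13640 and 14090 CPM in mature B-like cells. Iglc1 and Iglc2 together had 1 UMI in the first stage over both libraries. In mature B-like cells Iglc1 stood at 532 and 521 CPM and Iglc2 at 1330 and 1097 CPM.

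The share of lambda cells, called on Iglc1 and Iglc2 only, varied widely between B-lineage clusters. Iglc3 was left out of the call, though it had 356 and 453 UMIs in the small pre-B and immature stage. In the mature stage it had 1113 and 1249 UMIs. Cells with Iglc3 as their only lambda gene were therefore not counted as lambda. The lambda share was 4.14% (2.22 to 6.98%) and 3.46% (1.95 to 5.65%) of the cells with a light-chain call in the small pre-B and immature stage. In the mature stage it was 6.12% (4.07 to 8.78%) and 6.30% (4.42 to 8.65%). An unnamed cluster led by Reln and Col5a3, with the recombinase gene Rag1 among its top 10 genes and with 161 ND and 178 HFD cells, had 51.8% (43.1 to 60.4%) and 38.1% (30.6 to 46.1%). Its Igkc level was 3687 and 4601 CPM and its Iglc1 level 1396 and 1419 CPM. Within the mature stage the Fcer2a-rich sub-cluster had 1.63% and 1.98% lambda cells and the Ms4a1-led one 11.7% and 11.5%. The order of these sub-clusters was the same in both libraries, and their intervals did not overlap in either.

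**Figure D5:**
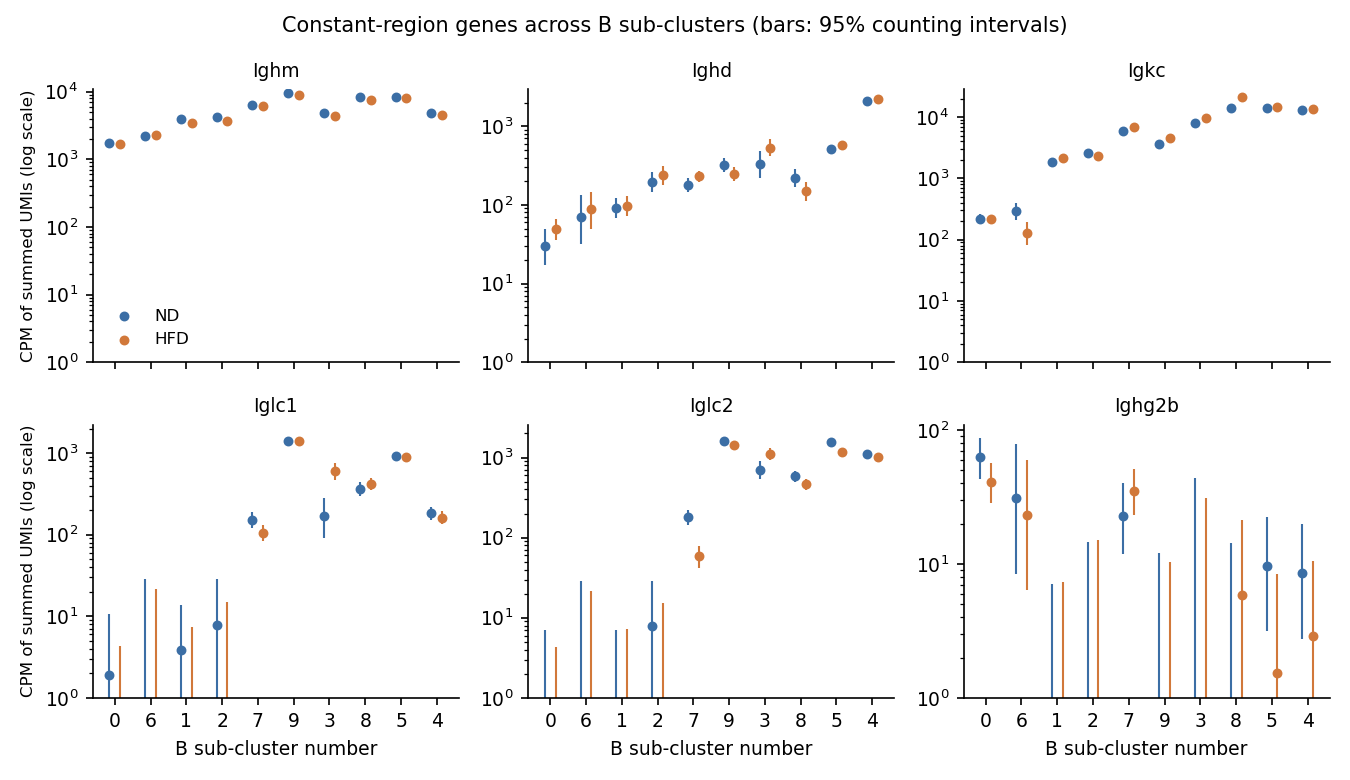
Levels of constant-region genes in CPM (vertical axes, log scale) across the 10 B-lineage sub-clusters, formed without immunoglobulin genes, for the ND and HFD libraries, with 95% counting intervals. Ighd reaches 2076 and 2212 CPM in sub-cluster 4, the Fcer2a-rich cells, and Iglc1 reaches 1396 and 1419 CPM in sub-cluster 9, the unnamed lambda-rich cells.

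Switched genes were rare before the plasma cell stage. Ighg2b was found in the pro-B sub-cluster led by Nrgn, Igfbp4 and Txnrd3, with Dntt and Igll1 further down its top 10 genes, in 20.5% of 44 ND cells and 16.2% of 68 HFD cells, with 33 and 35 UMIs in all and at most 11 per cell. Dntt adds bases at gene joints and Igll1 encodes a part of the pre-B receptor. These cells also held Ighm, and neutrophil-like cells had Ighg2b in 0.704% and 0.196% of cells. The depth of that sub-cluster was high, with medians of 10380 and 10012 UMIs, and thinned to 1000 UMIs per cell the shares were 4.55% and 2.94% against 0.156% and 0.0280%. The 2 thinned shares rest on few cells.

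Between the diets the main members of the B stages were close. In pro-B and large pre-B-like cells, where 2.33% of 7655 genes were called higher and 2.65% lower, no member was called, and Ighm stood at -0.03 and Ighd at 0.55 (-0.15 to 1.29). In small pre-B and immature B-like cells, with 2.62% and 2.45% of 7599 genes called, Ighm stood at -0.08, Ighd at 0.08 and Igkc at 0.41 (0.37 to 0.45). A single HFD cell held 2413 of the 12195 HFD Igkc UMIs of that stage, and without the richest cell of each library the ratio was 0.18 (0.13 to 0.22). In mature B-like cells, with 2.66% and 2.08% of 8382 genes called, Ighm stood at -0.05, Ighd at 0.08, Igkc at 0.05, Iglc1 at -0.03 and Iglc2 at -0.28.

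Iglc2, Igha and Jchain were the members called in these stages. In the small pre-B and immature stage Iglc2 was lower (-0.74, -1.01 to -0.46, at 312 and 188 CPM), and stood at -0.69 (-0.98 to -0.40) without the richest cell of each library. Iglc3, whose split from Iglc2 is uncertain, had 356 and 453 UMIs there. It stood at -0.07 (-0.28 to 0.14) without the richest cells, so the Iglc2 call may rest on that split. Igha was higher in the same stage (3.44, with 22 and 330 UMIs). Of the Igha molecules 18 and 293 came from 1 cell each, and Igha was found in 1.502% and 3.04% of cells, which is no more than the 2.74% and 3.69% of neutrophil-like cells. The HFD cell with 293 Igha UMIs also held 2413 Igkc, 35 Jchain and 1 Mzb1 UMIs. In mature B-like cells Jchain was lower (-1.91, -2.99 to -0.94, with 37 and 12 UMIs), found in 2.71% and 1.60% of cells, again no more than in neutrophil-like cells (3.36% and 2.88%). The sub-clusters of these stages had median depths of 2065 to 2418 UMIs. Neutrophil-like cells were deeper, so these shares were not compared at equal depth, and the source of the molecules was not tested.

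Among the 7 lists in mature B-like cells, no B cell receptor gene of 18 and no antigen presentation gene of 10 was called. Cxcr4, which holds B cells in the marrow, was higher (0.71, 138 and 275 UMIs), as was Fkbp2 (0.81).

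Outside the B lineage Ighm was spread unevenly over the cell types, and the source of these molecules was not tested. Plasmacytoid dendritic-like cells (898 ND and 818 HFD cells) had 1139 and 1033 CPM of Ighm in 99.1% and 98.8% of cells, at median depths of 5983.5 and 6279 UMIs. Conventional dendritic-like cells had 464 and 447 CPM and monocyte-like cells 303 and 255 CPM, against 57.5 and 66.2 CPM in neutrophil-like cells. Thinned to 1000 UMIs per cell, Ighm was found in 69.0% and 63.0% of plasmacytoid dendritic-like cells, 27.9% and 24.5% of monocyte-like cells and 7.0% and 8.74% of neutrophil-like cells.

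Light chains did not go along evenly. For every 100 Igkc UMIs there were 97.6 and 93.2 Ighm UMIs in neutrophil-like cells, 561 and 198 in monocyte-like cells and 20.6 and 17.9 in gated plasma cells. Plasmacytoid dendritic-like cells had Iglc3 in 22.7% and 20.2% of cells, at 98.0 and 96.5 CPM, against 0.274% and 0.419% of neutrophil-like cells. Iglc2 was found in 2.004% and 3.18% of the same cells. Jchain was found in 3.01% and 4.65% of them, close to the 3.36% and 2.88% of neutrophil-like cells.

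Between the diets, Igkc was higher in the HFD library in some of the classes that make no antibody. Its log2 ratio was 2.25 in stem and progenitor-like cells (390 and 1773 UMIs, 23.7% and 26.2% of cells), 1.43 in T cell-like cells (270 and 764 UMIs) and 1.25 in monocyte-like cells (956 and 3051 UMIs). In these classes 1.41%, 3.27% and 2.63% of genes were called higher. Leaving out the richest cell of each library, the ratios were 0.92 (0.73 to 1.12), 1.14 (0.90 to 1.37) and 1.21 (1.10 to 1.32). Other such classes had fewer Igkc UMIs in the HFD library. Unscaled, basophil or mast-like cells had 1806 and 991 UMIs over 1488 and 1452 cells. Macrophage-like cells had 1488 and 943 over 1719 and 1522 cells, and neutrophil-like cells 1252 and 1831 over 2558 and 3577 cells. The sum over all cells outside the B lineage and plasma cells stood at 0.50, under the 1.5-fold rule. Ighg2b over the same cells was lower (-2.44, 314 and 58 UMIs, where 3.79% of genes were called lower), with 184 of the ND UMIs in 1 erythroid-like cell.

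Over the 36 sums of 18 cell classes in 2 libraries, the genes most like each member by Pearson's r of log2(CPM + 10) were named from 12244 genes, immunoglobulin genes left out. Sums of the same class in the 2 libraries are not independent, and classes share depth and free RNA. The gated plasma class was itself set by Jchain and Mzb1 UMIs. Likeness of Jchain to plasma cell genes, and of Ighm to Mzb1, was therefore partly fixed by the gate. Jchain was most like Ccr10 (r = 0.967), Tnfrsf17 (0.961), Chst1 (0.958), Cacna1h (0.957) and Prlr (0.947). Igha was most like Prlr (0.946), Cacna1h (0.940), Ccr10 (0.940), Tnfrsf17 (0.938) and Chst1 (0.933). The plasma class pools the isotypes, so these values do not show that a gene goes with Igha within plasma cells. Chst1 was found in 5.88% (ND) and 5.41% (HFD) of IgA cells, against 84.6% of IgM cells in each library. Tnfrsf17 encodes the plasma cell survival receptor BCMA. Ighm was most like Mzb1 (0.903), Irf4 (0.897), Rasal1 (0.862), Cacna1e (0.859) and Fcrla (0.858), and Ighd like Ffar1 (0.962), Srpk3 (0.945), Lynx1 (0.944), Gm20506 (0.931) and Scd1 (0.928).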

How the data were processed

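The authors deposited 1 table of counts per library, that is RSEC-corrected UMIs per gene and cell, and per the file headers version 1.9.1 of BD's WTA Rhapsody pipeline made them. The sources used here give no build or annotation. Antibody tags were not used. The filter kept cells from 200 genes upward whose mitochondrial share did not pass 25%, and doublets called by Scrublet within each library (2.88% of ND and 2.79% of HFD cells) were removed. Cells were clustered with scanpy 1.11.5 (Python 3.11.15, leidenalg 0.10.2, igraph 0.11.9) on 2000 variable genes without immunoglobulin genes or Jchain, 30 principal components, 15 neighbours and Leiden resolution 1.0, and B-lineage clusters were clustered again in the same way. A cluster needed at least 3 markers of a class among its top 50 genes to be named. A light-chain call needed at least 3 light-chain UMIs.

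UMIs were summed over the cells of a class and scaled to its total, and the log2 ratio took an exact conditional binomial 95% interval (scipy 1.17.1). Shares took Clopper-Pearson intervals. Genes needed 20 UMIs over both libraries, and a sum of 0 was set to 3 UMIs for a ratio. To set shares of cells beside each other, cells were thinned to 1000 UMIs and shallower cells were left out. The ratios were tried on simulated sums of gated plasma cells, drawn as independent counts. Of 200 genes changed 2-fold 96.5% were recovered, and of 200 changed 4-fold 100%. Of the unchanged genes 2.68% and 6.42% were called. The simulation held no spread between cells, so it does not cover counts that came from few cells. Named genes were all members, with Ighg3, Ighe, Iglc3 and Mzb1, up to 4 genes of a list by size of ratio, the 6 highest and 6 lowest genes between IgA and IgM cells, and the 5 genes most like a member. The members and lists were chosen with earlier results of these data known. Alternatives changed the filter, doublet removal, gate, isotype and light-chain rule, scaling, resolution and minimum count. Using the plasma-like cluster, alone or with the gate, and leaving out cells led by Ighg3 were chosen after seeing the data. Sequences were read from GRCm38 with GENCODE M21 and aligned with Biopython 1.88, and figures were drawn with matplotlib 3.10.9. Some genes of the lists are not reported here.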

Additional observations from a re-analysis of the deposited data

How the results depend on the processing

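No paired analysis was possible because each diet had 1 library. The shares of isotypes and light chains and the ratio of plasma cell shares moved by less than their counting error under every alternative run. The ND plasma cell share moved to 0.797% with all deposited cells. In gated plasma cells the counts of members called, 0 higher and 3 lower, were the same under all 7 alternatives. The B stages were less stable, since other filters or resolutions formed other stages. In the small pre-B and immature stage the 1 member called higher became 2 with doublets kept and 0 at Leiden resolutions 0.5 and 2.0. The 1 called lower became 2 with a mean over cells, 2 with cells thinned to 1000 UMIs, 3 with doublets kept and 0 at resolution 0.5. The stricter filter of 500 genes and 15% mitochondrial UMIs formed no such stage and gave no value. In mature B-like cells the 1 member called lower became 0 when thinned and 0 at resolution 2.0, and 1 was higher with doublets kept. In pro-B and large pre-B-like cells 1 member was higher and 1 lower with doublets kept and with the stricter filter, and 1 was lower at resolution 0.5. The cause was not tested. With a minimum of 100 UMIs, genes called fell from 713 to 231 in gated plasma cells, 381 to 96 in pro-B and large pre-B-like, 385 to 121 in small pre-B and immature and 397 to 102 in mature B-like cells, as fewer genes were tested. No direction of a called member reversed. Leaving out the 3 HFD cells led by Ighg3 turned the HFD ratio of IgA over IgM cells for Top2a from 1.40 to -1.46, and keeping to the plasma-like cluster turned its ND ratio from 1.70 to -1.06.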

Other observations

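A few B-lineage cells outside the plasma gate held 5 or more UMIs of a switched heavy-chain gene. In the Il2ra-led small pre-B sub-cluster the gene was Ighg2b, in 1 ND and 3 HFD cells with 5 to 7 UMIs. In the immature sub-cluster led by Igsf9 and Cd72 it was Igha, in 1 ND cell (18 UMIs) and 2 HFD cells (24 and 293 UMIs). In the Fcer2a-rich mature cells it was Ighg3 in 1 ND cell, and Igha and Ighg1 in 1 HFD cell each. The Ighg1 cell held 6 Ighg1 UMIs and 0 of Ighm and Ighd, so it was the only one of these mature cells with no Ighm.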
